A study of Mus musculus with 9 samples.

Results

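Ccr2 classical monocytes were looked for in dissociated mouse liver by the raw counts of unique molecular identifiers (UMIs, tags that let each captured transcript be counted once). A cell was taken when it had at least 200 genes detected, at least 3 UMIs of Ccr2, Vcan, F13a1 and Ly6c2 summed, and at least 2 UMIs of Lyz2. It also had to have at most 2 UMIs of C1qa, C1qb and C1qc (macrophage complement genes), under 5 of Elane, Mpo and Prtn3 (granule enzymes of early myeloid cells) and under 10 of Ltf, Ngp and Camp (neutrophil granule proteins). At most 2 UMIs of Col1a1 and Col3a1 and under 5 of Mki67, Top2a, Cenpe, Cenpf, Kif11 and Nusap1, genes of dividing cells, were allowed. These criteria left 203 of 4617 cells, a share of 4.40% (95% exact Clopper-Pearson interval 3.82 to 5.03). The cells were thus chosen by the measured counts of these 22 genes, so their levels are described only.

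The study used carbon tetrachloride (CCl4), a liver poison that leads to fibrosis when given again and again, in C57BL/6J mice aged 6-8 weeks, with 9 samples in 4 groups. Wild-type mice had CCl4 for 0, 2 or 4 weeks, 1 sample each. The cells described here are from 6 samples labelled CluKO (a knockout of clusterin, Clu), from 3 mice given recombinant human clusterin while CCl4 was injected. How these 6 samples relate to the 3 mice was not given in the sources used here, and they share 1 matrix with no sample names, so they count as 1 sample. No replicate error and no test is possible, and intervals cover counting error only. Genes in the wild-type samples were not analysed here, so nothing is said about genotype, clusterin or time on CCl4.

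Classical monocytes are short-lived blood phagocytes made in bone marrow from granulocyte-monocyte progenitors. They leave the marrow and enter injured tissue through Ccr2, the receptor for the chemokine Ccl2, and in mice they are marked by high Ly6c2. In scarring liver they are a known source of new macrophages, and some come to carry MHC class II, which presents peptides to helper T cells. Fewer cells of a type and less RNA per cell can both lower a level summed over cells, which is why shares of cells are given beside sums.

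The 203 cells had a median of 3266 UMIs (2373 to 25789) and 1395 genes, and they did not all fit their label. Markers of 13 other cell types were summed in each cell, leaving out the markers that monocytes share, and 49 cells had 10 or more UMIs of at least 1 of these lists. Plasma cell markers accounted for 21 of them, hepatocyte markers for 14, neutrophil markers for 7 and conventional dendritic cell markers for 3. B cell, T cell and plasmacytoid dendritic cell markers accounted for 2 each. Natural killer, basophil or mast, mesothelial and stellate cell or fibroblast markers accounted for 1 each. Kupffer cell and endothelial lists reached 10 UMIs in 0 cells, and 6 cells reached it for more than 1 list.

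**Figure D1:**
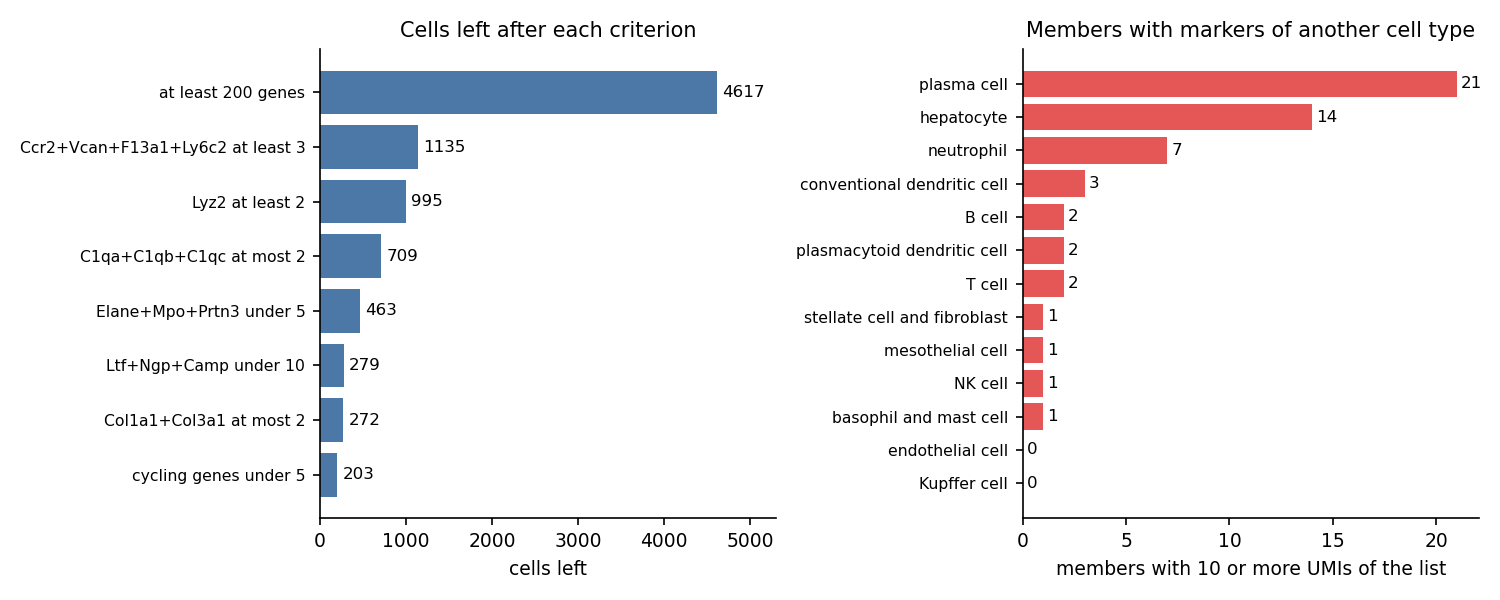
Left, cells left after each criterion in turn, from 4617 to 203 (x axis, number of cells). Right, members with 10 or more UMIs of the marker list of another cell type (x axis, number of members), led by 21 cells with plasma cell markers.

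The 21 cells with plasma cell markers stood far from the others. Their summed plasma cell markers, Igkc left out, ran from 248 to 1783 UMIs, while no other member had more than 4. Jchain, which joins antibody units for secretion, had 193 to 1449 UMIs (median 563) in these cells and at most 3 in the other members. Immunoglobulin and Jchain UMIs made up 67.3% of all UMIs in the 21 cells. They made up 0.0987% in the 154 cells with under 10 UMIs of each of the 13 lists. All 21 had Ly6c2, with 2 to 38 UMIs (median 7), and 18 of them entered on Ly6c2 alone of the 4 positive genes. Vcan, Ms4a4c and Csf1r were at 0 UMIs in all 21, and Ccr2 was seen in 3 of them. They held 241680 of the 881968 UMIs of the 203 cells, so levels summed over all members take in those of the plasma cells.

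The label therefore goes against the data for a part of the cells, and the rule alone does not mark off monocytes. Below, the 154 cells with under 10 UMIs of each list of other-type markers counted above are called monocyte-like. The numbers of genes past 2-fold are also given over all 203. Macrophage, granulocyte-monocyte progenitor and erythroid markers were not used to set cells apart, and there was no platelet list. Macrophage markers reached 14 UMIs in the 154 cells, with a median of 1. The limit of 10 UMIs was set after the counts of other-type markers were seen. In the 154 cells, erythroid markers, which every one of them carried, had a median of 16 UMIs and a range of 5 to 2271, and 14 cells had 100 or more. Their part in the results was not tested.

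The genes used by the rule were spread unevenly among the 154 cells. Ccr2 was found in 145 of 154 cells (94.2%, 89.2 to 97.3), with 0 to 15 UMIs and a median of 4. F13a1, the coagulation factor that cross-links fibrin, was found in 81.2% (0 to 23 UMIs, median 3). Ly6c2, a surface antigen, was found in 83.1% (0 to 33 UMIs, median 7), and Vcan, the matrix proteoglycan versican, in 59.7% (0 to 18 UMIs, median 1). All 4 were detected in 83 cells and a single 1 of them in 16 cells. In hepatocytes, which should lack them, Ccr2 was found in 4.35% and Vcan in 0 of 115 cells at a median of 6511 UMIs, against 3152 UMIs in the monocyte-like cells. Ly6c1, the close copy of Ly6c2, had 0 UMIs in all 154 cells, and the way reads shared by both genes were counted was not given in the sources used here.

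Cells next to the thresholds show how sharp the limits were. The 13 members with just 3 UMIs of the 4 positive genes had Chil3 at 787 CPM (counts scaled to 1000000 UMIs), against 70.1 CPM in the 16 cells that missed this criterion alone with 2 UMIs. At the macrophage limit, the 23 members with 2 C1q UMIs had Chil3 at 1428 CPM, and the 3 cells with 3 C1q UMIs had 3092 CPM. At the Lyz2 limit both sides were low in Chil3, with 26.3 CPM in 17 members at 2 UMIs and 6.71 CPM in 21 cells at 1 UMI. Members here are all 203, and those with plasma cell markers had 2 to 9 Lyz2 UMIs with a median of 2. At the progenitor limit the 11 members with 4 UMIs of Elane, Mpo and Prtn3 had Chil3 at 1877 CPM, and the 7 cells with 5 had 2524 CPM. The limit on cycling genes alone held back 69 cells and the limit on C1q alone 204 cells.

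Monocyte genes that the rule did not use were present in most of the 154 cells. Ms4a4c, a membrane protein of the MS4A family, was found in 112 cells (72.7%, 65.0 to 79.6; 0 to 10 UMIs, median 2), against 1.74% of hepatocytes. Chil3, a secreted chitinase-like protein, was found in 117 cells (76.0%, 68.4 to 82.5; 0 to 53 UMIs, median 7.5), against 7.83% of hepatocytes. Csf1r, the receptor for the growth factor that keeps monocytes and macrophages alive, was found in 69.5%, and Fn1, fibronectin, in 75.3%. Fn1 was also found in 30.4% of hepatocytes, which secrete it. With every cell thinned to 2000 UMIs, Ms4a4c was found in 63.0% of monocyte-like cells and 24.4% of progenitors, and Chil3 in 73.4% and 50.2%. At the same depth Plac8, a small cysteine-rich protein, was found in 84.4% of monocyte-like cells and 90.6% of progenitors.

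**Figure D2:**
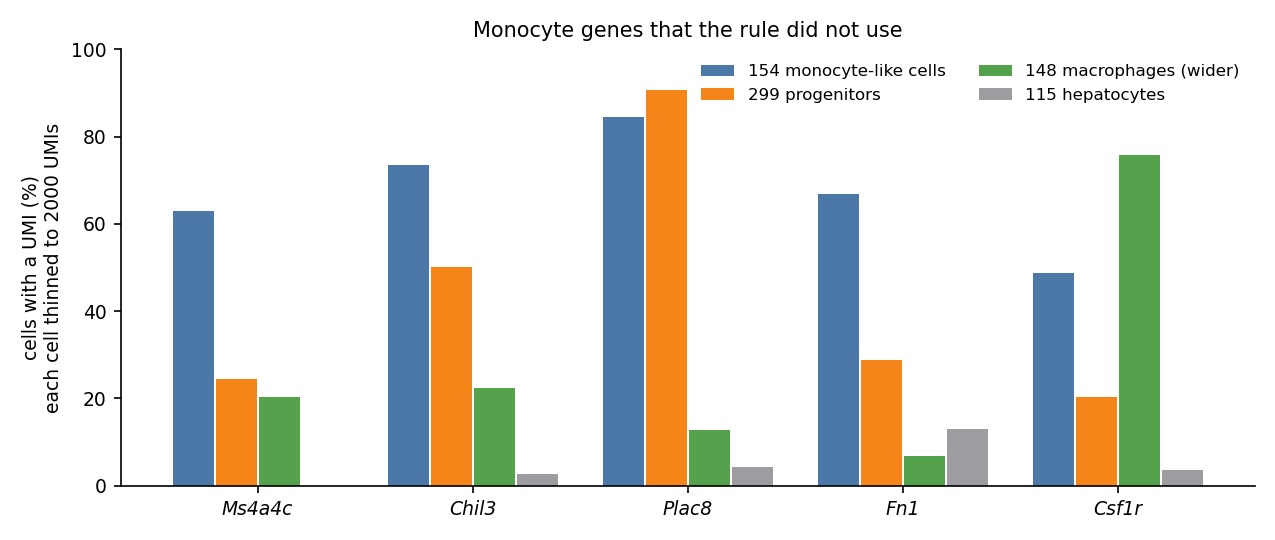
Share of cells with at least 1 UMI (y axis, %) of 5 genes that the rule did not use, every cell thinned to 2000 UMIs, in 4 kinds of cells. Ms4a4c, Chil3 and Fn1 were most frequent in the monocyte-like cells, Plac8 was about as frequent in progenitors, and Csf1r was most frequent in macrophages.

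Cells chosen by granule enzymes, called progenitors here, were the first comparison: 299 cells with at least 5 UMIs of Elane, Mpo and Prtn3. Of these, 61 met every other criterion of the members. Ltf, Ngp and Camp were not limited, and cells with neutrophil or basophil genes were not taken out. The 299 cells were deeper, with a median of 8778 UMIs. Levels were summed over cells and compared as log2 ratios of CPM with 20 CPM added to both sides, and 2-fold was the size counted. Among 3774 genes compared, 374 (9.91%) were at least 2-fold higher and 492 (13%) at least 2-fold lower in the monocyte-like cells. Over all 203 members these were 243 (6.80%) and 643 (18.0%) of 3572. The genes of cell division, Prc1, Pclaf, Ube2c and Rrm2, are among the lowest, and members were limited in cycling genes while progenitors were not.

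MHC class II genes stood highest against progenitors. Cd74, the invariant chain that guides MHC class II molecules, had 7432 CPM in monocyte-like cells and 111 CPM in progenitors, 66.7-fold (59.4 to 75.1). H2-Aa was 69.9-fold (52.9 to 93.9), H2-Eb1 95.9-fold (64.6 to 148) and H2-Ab1 43.6-fold (34.4 to 55.9) higher. Of 8 genes of the MHC class II list with enough counts, 7 were at least 2-fold higher and 0 lower. These UMIs came from few cells, as shown further on.

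Of 31 classical monocyte genes that the rule did not use, 21 were at least 2-fold higher than in progenitors and 0 were 2-fold lower. Their median log2 ratio was 1.57 against -0.14 over all genes compared. Sirpb1c, a signal-regulatory receptor, had 322 CPM against 14.8 CPM, and Wfdc17, a small secreted protease-inhibitor-like protein, 2542 CPM against 247 CPM. Ms4a4c was 4.50-fold higher (3.90 to 5.19) and Chil3 1.82-fold higher (1.71 to 1.93). Plac8 stood at a log2 ratio of -0.40, and Klf4 and Irf8, transcription factors of the monocyte lineage, at -0.50 and -0.57, all within 2-fold.

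Sensing and uptake genes also stood above the progenitor level. Fc receptors and their signalling partners were at least 2-fold higher in 12 of 14 genes, with Fcgr4, a receptor for antibody, at 24.5-fold (14.8 to 42.6). Clec5a of that list was lower, at a log2 ratio of -1.22. Lysosomal genes were at least 2-fold higher in 14 of 21, interferon-stimulated genes in 12 of 19 and macrophage-differentiation genes in 14 of 19. Apoe, which carries lipid, had 7188 CPM against 528 CPM, and Ifi27l2a, an interferon-stimulated gene, 915 CPM against 93.8 CPM. Genes induced by tissue dissociation, such as Atf3 and Dusp1, were higher in 7 of 16, and their part in the other differences was not tested. Glycolysis genes were 2-fold higher or lower in 0 of 13. Over all 203 members fewer genes were higher: 8 of 21 lysosomal genes, 7 of 13 Fc receptor genes, 9 of 16 interferon-stimulated genes and 13 of 19 macrophage-differentiation genes. Glycolysis genes were then lower in 3 of 13, MHC class II genes higher in 5 of 8 and classical monocyte genes higher in 17 of 31 and lower in 1.

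Among the lowest genes were granule proteases, and progenitors were chosen by 3 genes of granule enzymes that the rule limits in members. Ctsg, cathepsin G, had 17.1 CPM against 1077 CPM, and Ms4a3, a marker of these progenitors, 1 UMI against 1459. Prss34 and Mcpt8, basophil and mast cell proteases, had 43.8 CPM and 9.53 CPM in monocyte-like cells and 10017 CPM and 1422 CPM in progenitors. Over all 203 members Prss34 had 777 UMIs, of which 744 came from 1 cell with basophil and mast cell markers. S100a8 and S100a9 stood at log2 ratios of -3.31 and -4.09, while S100a4 and S100a6 of the same family stood at 1.76 and 1.68.

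Macrophages with Cx3cr1, a tissue fate of these cells, were the second comparison. As laid out, these were cells with at least 2 Cx3cr1 UMIs, 10 C1q UMIs, few Kupffer genes, little Gpnmb and no cycling, and only 21 cells met this. Over all members, 269 of 3117 genes (8.63%) were at least 2-fold higher and 307 (9.85%) at least 2-fold lower than in these 21 cells. A wider choice without the limits on Gpnmb and cycling, made after that count was seen, had 148 cells. Against it, 234 of 3495 genes (6.70%) were higher and 284 (8.13%) lower in the monocyte-like cells.

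Genes of the adhesion and classical monocyte lists were among the highest. Fn1 had 1303 CPM in monocyte-like cells and 96.8 CPM in the 148 macrophages, 13.5-fold (10.7 to 17.1). Itgb7, an integrin chain of homing cells, was 16.1-fold (9.31 to 30.3) higher. Hopx, a small homeodomain protein, was 20.6-fold (10.5 to 46.3) and Mcemp1, a membrane protein of myeloid cells, 12.9-fold (7.89 to 22.4) higher. Plac8 was 14.7-fold (12 to 18.3), Chil3 9.98-fold (8.69 to 11.5) and Ms4a4c 5.87-fold (4.69 to 7.41) higher. Against the 21 macrophages, Ms4a4c was at a log2 ratio of 0.17 in the monocyte-like cells and -0.44 over all members, both within 2-fold. The size of its difference thus depends on which macrophages are taken.

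The classical monocyte list was at least 2-fold higher than in the 148 macrophages in 20 of 31 genes and lower in 0, with a median log2 ratio of 1.40 against 0.07 over all genes. In the adhesion list 7 of 14 were higher and in the S100 list 4 of 8, with S100a8 and S100a9 lower at -1.08 and -1.85. Against the 21 macrophages the 154 cells had S100a8 at 1.98 and S100a9 at 0.11, so these directions turn with the macrophages taken. The coagulation list had 4 of 7 higher, among them F10 (coagulation factor X) at 2.62 on the log2 scale. Ltb4r1, the receptor for the lipid attractant leukotriene B4, stood at 3.05, while C3ar1, the receptor for complement C3a, stood at -2.76.

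Genes of the macrophage state were lower. Members had at most 2 C1q UMIs and macrophages at least 10, and the 148 were not limited in Gpnmb. These levels are thus tied in part to the choice of cells. The macrophage-differentiation list was at least 2-fold lower in 21 of 25 genes and higher in 0, with a median of -2.17, and the lysosome list was lower in 13 of 22. Against the 21 macrophages the 154 cells were lower in 10 of 19 and higher in 1, with a median of -1.06 against 0.18 over all genes. The lysosome list was then lower in 5 of 21, with a median of -0.53. Slc40a1, the iron exporter ferroportin, had 9.53 CPM against 739 CPM, 77.5-fold lower (33.1 to 240), while the 21 macrophages had 119 CPM. Apoe was 7.66-fold (7.41 to 7.92) lower, with 54295 CPM in the 21 macrophages. Cd5l, a secreted macrophage protein, was 31.3-fold (21.1 to 48.6) lower than in the 148 macrophages, at 47.6 CPM, and the 21 macrophages had 450 CPM. The transcription factors Maf and Nr1h3 were 4.92-fold and 5.06-fold lower. MHC class II genes, by contrast, were near the macrophage level in sum, with H2-Aa at 0.13, H2-Ab1 at 0.11 and H2-Eb1 at -0.07 on the log2 scale. Against the 21 macrophages and over all members, 7 of 8 MHC class II list genes were at least 2-fold lower, so this too depends on the macrophages taken. The sums came from few monocyte-like cells: H2-Aa was found in 37 of 154, and 24 cells held 693 of its 714 UMIs.

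**Figure D3:**
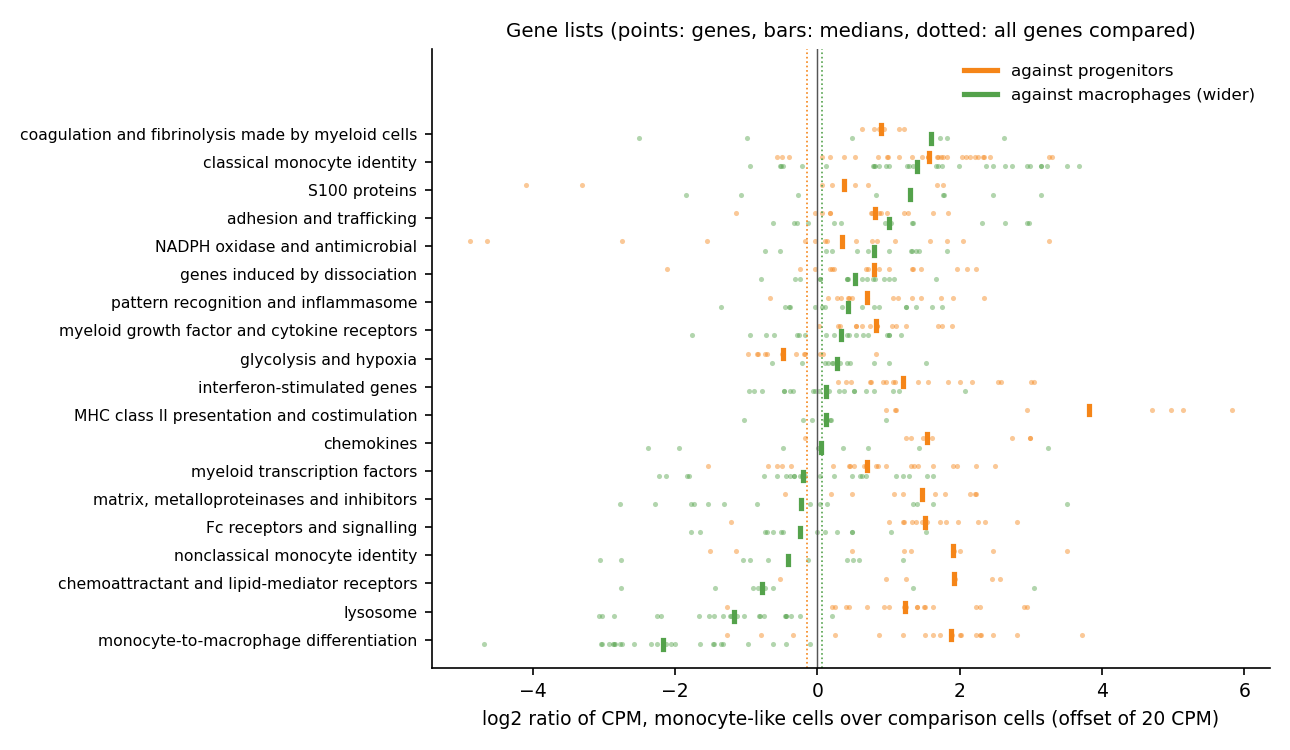
Log2 ratios of CPM (x axis, offset of 20 CPM) of the genes of 19 lists in the 154 monocyte-like cells over 299 progenitors and over the 148 macrophages of the wider choice. Points are genes, bars are list medians and dotted lines are medians of all genes compared. The MHC class II list has a median of 3.82 against progenitors and 0.12 against macrophages.

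Several of the highest genes over all members came from other cells. Jchain had 13629 CPM over all members and 49.5 CPM in the monocyte-like cells, against 42.5 CPM in the 148 macrophages. Mzb1, a chaperone of antibody-making cells, had 1005 CPM and 7.62 CPM. Retnlg and S100a8, neutrophil genes, were at 830 CPM and 2861 CPM over all members. In the monocyte-like cells they were at 36.2 CPM and 684 CPM. The 148 macrophages had 111 CPM and 1465 CPM and the 21 macrophages 26.5 CPM and 159 CPM, so the direction turns with the macrophages taken. Saa3, an acute-phase protein, had 387 of its 608 UMIs in 1 member that also had 19 UMIs of Msln and 22 of Upk3b, mesothelial markers.

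Neutrophils were the third comparison, and only 15 cells met the limits laid out, since most neutrophils here carry Ltf, Ngp or Camp. Over all members, 399 of 2986 genes (13.4%) were at least 2-fold higher and 388 (13%) lower. Against 168 neutrophils chosen without that limit, 1334 of 3290 (40.5%) were higher and 308 (9.36%) lower in the monocyte-like cells. These neutrophils had a median of 908 genes at 3406.5 UMIs, against 1388.5 genes at 3152 UMIs in the monocyte-like cells. The part of this difference in the 2 counts was not tested. Fcgr1, the high-affinity antibody receptor, was 31.4-fold (13.1 to 98.3) and Gpx3, a secreted peroxidase, 33.1-fold (12.6 to 124) higher. Pglyrp1, a protein that binds bacterial walls, was 72.6-fold (48.6 to 113) and Hdc, which makes histamine, 112-fold (30.8 to 931) lower. Chil1 and G0s2, high in neutrophils, were at 0 UMIs in the 154 cells and at least 202-fold and 51.0-fold lower, with 3 counts over the group as the floor. Chil3 itself was higher in neutrophils, with 4647 CPM against 2767 CPM, and Ly6c2 was similar, with 2061 CPM against 2378 CPM.

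Within the 154 cells MHC class II set a small group apart. The summed UMIs of H2-Aa, H2-Ab1 and H2-Eb1 were 0 in 108 cells, at most 2 in 124 cells, 3 or 4 in 6 cells and 13 to 301 (median 64.5) in 24 cells. No cell lay between 4 and 13 UMIs, and the 24 cells were 15.6% of the 154 (10.2 to 22.3). H2-Aa had 5 to 112 UMIs in each of the 24 cells and 0 or 1 in the 124. Median depth was similar, with 3289.5 UMIs in the 24 cells and 3122 in the 124. This cut was placed after the values were seen, and the MHC class II levels are therefore a description of the choice.

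The core promoters of MHC class II genes are known for a shared module, in which an X box and a Y box are bound by factors that recruit the coactivator Ciita. RefSeq promoter sequences (GRCm38.p6) held 5 of 7 genes looked up, and 3 are shown, chosen for their matches to these boxes. H2-DMa, also higher in the 24 cells, had a Y box in 1 of its 2 windows and no X box core, and Ctss, a protease of the pathway, had an X box core and no Y box. Each stretch is 110 bases, 5′ to 3′ on the gene's strand, ending 11 bases before the start in RefSeq. Capitals mark exact matches to AACNGATG (the core of the X box) and GATTGG (Y box), searched on both strands and not overlapping each other.
H2-Eb1, chr17:34305747-34305856, plus strand: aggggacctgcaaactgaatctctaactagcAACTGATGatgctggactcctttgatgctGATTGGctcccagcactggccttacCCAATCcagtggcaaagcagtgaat
H2-DMb1, chr17:34153071-34153180, plus strand: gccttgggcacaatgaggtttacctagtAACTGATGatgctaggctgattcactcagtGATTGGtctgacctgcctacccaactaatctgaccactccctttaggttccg
H2-Aa, chr17:34287834-34287943, minus strand: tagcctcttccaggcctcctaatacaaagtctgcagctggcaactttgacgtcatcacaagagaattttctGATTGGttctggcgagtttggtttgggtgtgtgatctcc

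The X box core began 89 bases before the RefSeq start in H2-Eb1 and 92 bases before it in H2-DMb1, and the Y box 60, 62 and 49 bases before it in H2-Eb1, H2-DMb1 and H2-Aa. Of 32851 promoters of 300 bases, 2.32% held the X box core, 16.1% the Y box letters and 0.335% both. A match describes letters and shows no binding. The H2-Aa window had no X box match. These genes lie on chromosome 17 with H2-Aa at 34282744 to 34287823 and H2-Eb1 at 34305867 to 34316674 (GRCm38, GENCODE). GENCODE has H2-DMb1 at 34153072 to 34160230, an earlier start than RefSeq, so by that annotation the printed H2-DMb1 stretch lies almost wholly inside the gene.

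Some monocyte genes in the 24 cells were near the level of the 124, and others were lower. Ccr2 had a median of 4.5 UMIs in them and 4 in the 124 cells, with 1270 CPM (1044 to 1531) against 1359 CPM (1250 to 1476). Ms4a4c was found in 19 of 24 cells, with 854 CPM against 663 CPM, 1.29-fold (0.983 to 1.67). Plac8 had 1882 CPM against 1679 CPM, 1.12-fold (0.940 to 1.33). For these 3 genes the groups overlapped and the intervals of the ratio held 1.

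Fn1 was found in 5 of 24 cells and in 108 of 124, with 150 CPM against 1569 CPM, 10.5-fold lower (6.07 to 19.7). Hp, haptoglobin, which binds free haemoglobin, was found in 6 of 24 and in 109 of 124 cells, 9.79-fold lower (5.56 to 19.1). Chil3 was found in 5 of 24 and in 107 of 124 cells, 6.34-fold lower (4.71 to 8.73). Single cells still overlapped, since some of the 124 had 0 UMIs of each gene. Of the genes the rule used, Ly6c2 was found in 12 of 24 cells (0 to 13 UMIs) and in 112 of 124 (0 to 33), F13a1 in 6 of 24 and Vcan in 4 of 24. A cell at 0 for these 3 had to reach the sum of 3 UMIs by Ccr2, so their levels and that of Ccr2 are tied by the rule. Lyz2, also used by the rule, had 2 to 199 UMIs (median 26) in the 24 cells and 3 to 158 (median 83) in the 124.

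Among 2589 genes compared, 77 (2.97%) were at least 2-fold higher and 332 (12.8%) at least 2-fold lower in the 24 cells. H2-DMb1, which helps load peptides, was 8.65-fold higher (5.34 to 14.3) and H2-DMa, its partner, 3.37-fold (2.49 to 4.54). Ly6a, the surface antigen Sca-1, had 42 UMIs in 11 of the 24 cells and 6 UMIs in 4 of the 124, 33.9-fold higher (14.3 to 97.6). Interferon-stimulated genes were at least 2-fold higher in 5 of 17 and lower in 0, with Bst2 at 4.64-fold (3.01 to 7.13) and Oasl2 at 6.33-fold (2.90 to 14.2). The classical monocyte list was higher in 1 of 31 and lower in 11, and the S100 list lower in 5 of 8. Macrophage-differentiation genes were higher in 1 of 18 and lower in 1, and that 1 higher gene, Cd63, had 30 of its 36 UMIs in 1 cell.

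Conventional dendritic cell markers were also higher in the 24 cells. The 8 conventional dendritic cell markers summed to 393 CPM in the 24 cells (0 to 9 UMIs, median 0) and 50.1 CPM in the 124 cells, with 1 of the 8 genes at 0 in the 24. Cd209a, a lectin found on monocyte-derived dendritic cells, had 14 UMIs in 5 of the 24 cells and 0 in the 124. Flt3, the receptor that dendritic cells depend on, had 4 UMIs in 3 of the 24 cells, and Zbtb46, a transcription factor of conventional dendritic cells, had 1. The 5 plasmacytoid dendritic cell markers summed to 600 CPM in the 24 cells (0 to 8 UMIs, median 1) and 224 CPM in the 124. In both, 2 of the 5 genes were at 0. Most of the sum in the 24 cells was Bst2, the interferon-stimulated gene named above, with 45 UMIs against 47 in the 124. The sum thus does not show the other markers of this list to be higher. The 5 B cell markers summed to 46.2 CPM in the 24 cells and 4.77 CPM in the 124, with at most 2 UMIs in a cell. The part of these cell types in the group was not tested.

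**Figure D4:**
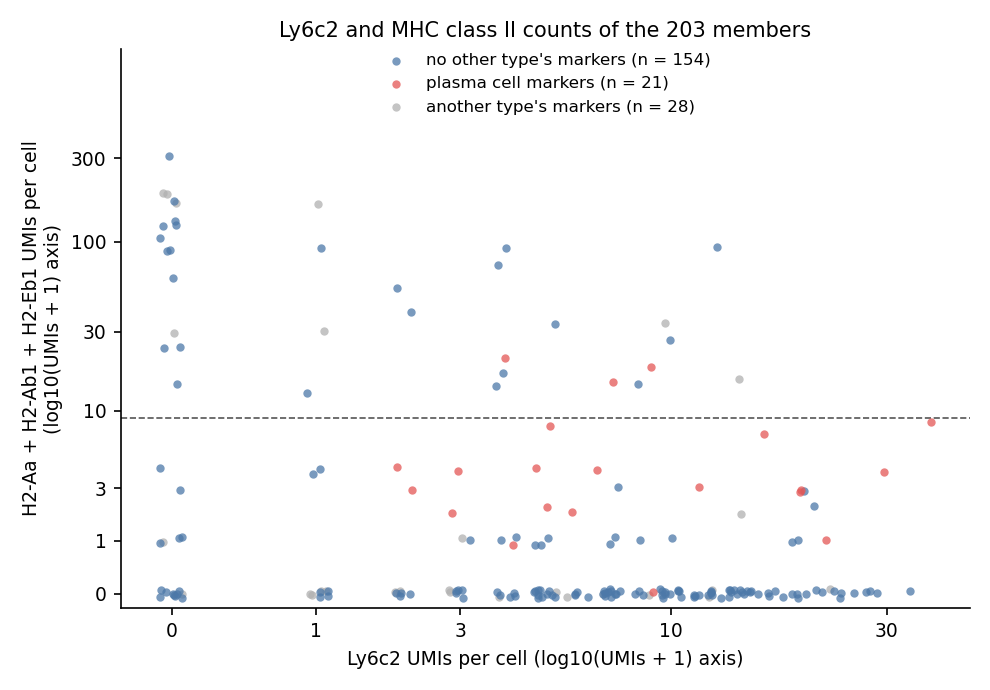
UMIs of Ly6c2 (x axis) against summed UMIs of H2-Aa, H2-Ab1 and H2-Eb1 (y axis) in each of the 203 members, both on log10(UMIs + 1) axes, with small random shifts to separate points. The dashed line is at 9 UMIs. Of the 154 cells with under 10 UMIs of each of the 13 marker lists, 24 lie above it, 12 of them without a Ly6c2 UMI.

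A second group was marked by Gpnmb and Spp1, genes of lipid-handling macrophages in scarred liver. Their summed UMIs were 0 in 87 of the 154 cells and 5 to 98 in 15 cells, with 7 cells at 3 or 4 and 3 cells at 5 or 6, so this limit cuts a range and not a gap. Depth was similar, with medians of 3395 and 3113 UMIs. Apoe had 3 to 353 UMIs (median 135) in the 15 cells and 0 to 233 (median 4) in the other 139, 11.5-fold higher (10.8 to 12.3). Ctsb, a lysosomal protease, had 2 to 138 UMIs (median 41) against 0 to 44 (median 4), 7.93-fold (7.13 to 8.83).

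Of 2686 genes compared, 133 (4.95%) were at least 2-fold higher and 380 (14.1%) lower in these 15 cells. The macrophage-differentiation list was higher in 13 of 16 genes and the lysosome list in 13 of 21, with 0 lower in both. Ms4a7, a macrophage membrane protein, was 26.8-fold (11.8 to 68.2), Igf1, a growth factor, 28.8-fold (12.8 to 72.8) and Cd36, a lipid scavenger receptor, 23.8-fold (12.1 to 50.2) higher. Plac8 was found in 4 of 15 cells and in 131 of 139, 5.62-fold lower (3.61 to 9.24). Ccr2 was found in 12 of 15, at 851 CPM against 1384 CPM. Macrophage markers summed to 0 to 14 UMIs (median 4) in the 15 cells and 0 to 7 (median 1) in the 139, at 1345 CPM against 281 CPM. The part of macrophage RNA in this group was not tested. MHC class II marked 4 of these 15 cells.

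**Figure D5:**
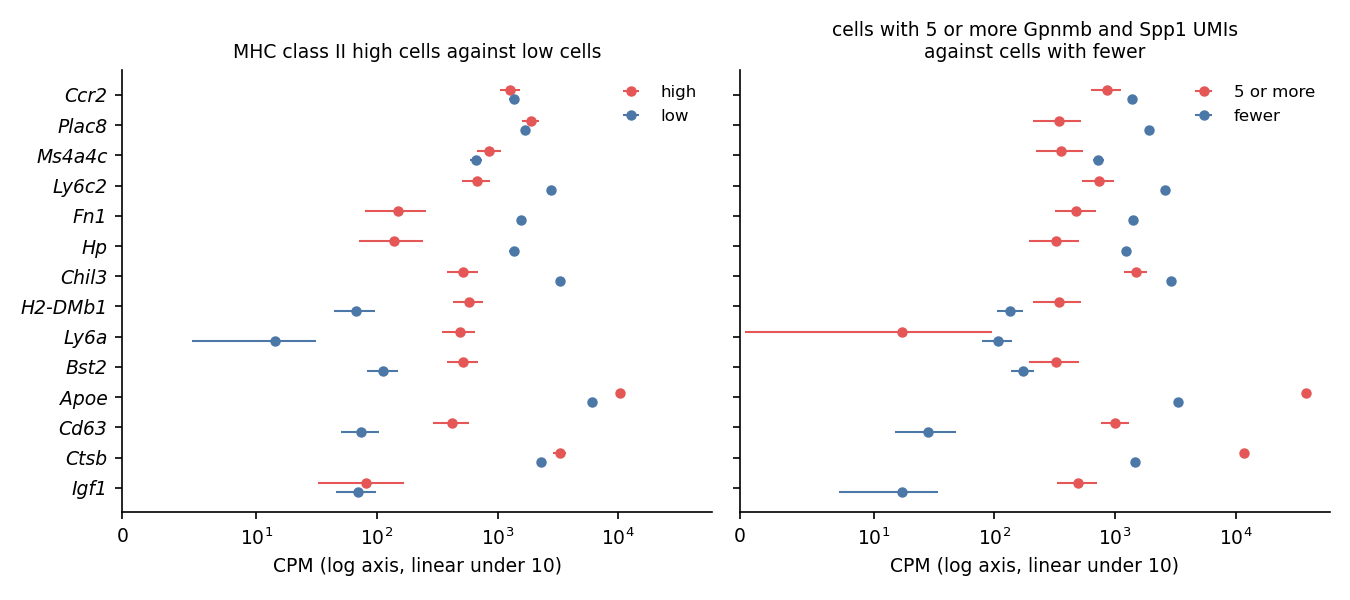
Levels of 14 genes in CPM (x axis, log scale, linear under 10), with 95% exact Poisson intervals, in the 24 cells high and the 124 cells low in MHC class II (left) and in the 15 cells with at least 5 UMIs of Gpnmb and Spp1 and the 139 others (right). Ccr2 is close to even on the left, Fn1, Hp and Chil3 are lower in the MHC class II high cells, and Apoe, Cd63, Ctsb and Igf1 are higher in the Gpnmb and Spp1 cells.

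The 154 cells were also ordered by the share of their UMIs from Ly6c2 and the 51 highest, the 52 middle and the 51 lowest were set apart, with median Ly6c2 counts of 15, 7 and 0. Between the 51 highest and the 51 lowest, 87 of 1873 genes (4.64%) were at least 2-fold higher and 100 (5.34%) lower. Mmp8, a collagenase, was 5.66-fold (3.24 to 10.6), F10 5.18-fold (2.83 to 10.2) and Hp 3.01-fold (2.34 to 3.90) higher in the highest cells. Ccr2 had 1208 CPM against 1156 CPM, and since both genes enter the sum of the rule this is a description only. Apoe was 10.7-fold (9.42 to 12.2) and Lgmn, a lysosomal protease, 7.53-fold (4.95 to 11.9) lower. The MHC class II list was at least 2-fold lower in 7 of 8 genes, the macrophage-differentiation list in 11 of 17 and the lysosome list in 9 of 19. The 51 lowest took in every cell without a Ly6c2 UMI, among them 12 of the 24 MHC class II high cells. Ly6c2 was found in only 7 of the 15 Gpnmb and Spp1 cells. This split thus shares cells with both groups above. Cenpa and Ccnb2, genes of dividing cells that the rule did not limit, were 20.2-fold (5.23 to 173) and 7.96-fold (4.71 to 14.4) higher. Over all 203 members, ordered and split in the same way, 318 of 2545 genes (12.5%) were higher and 141 (5.54%) lower. Ordered by the share of UMIs from H2-Aa, H2-Ab1, H2-Eb1 and Cd74, 94 of 2455 (3.83%) were higher and 726 (29.6%) lower over all members. Over the 154 cells these were 39 of 1770 (2.20%) and 68 (3.84%).

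Correlations across the 154 cells, on log values per 10000 UMIs, describe the same order, and all cells share 1 matrix and differ in depth. Ly6c2 had Pearson's r of -0.55 with summed MHC class II genes and Cd74, 0.54 with Hp, 0.53 with Fn1 and -0.46 with Apoe. MHC class II and the sum of Gpnmb and Spp1 had r of 0.04.

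Clu, the gene named in the genotype, was nearly absent from the monocyte-like cells outside 1 cell. It had 47 UMIs in 6 of the 154 cells (3.90%, 1.44 to 8.29), of which 42 were in 1 cell. That cell also held 85 of 89 UMIs of Ppbp, 49 of 101 of Pf4, 100 of 128 of Gng11 and all 51 of Alox12, genes of platelets and megakaryocytes. It had 0 UMIs of Ccr2, Vcan and Ly6c2 and 5 of F13a1, which platelets also carry, so it entered on F13a1 alone. Ppbp at 3.24 on the log2 scale among the chemokines against the 148 macrophages rests on this cell. In hepatocytes of the same matrix, labelled CluKO, Clu was counted in 93.9% of cells, at 4964 CPM.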

How the data were processed

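Single-cell RNA of mouse liver was captured with Singleron GEXSCOPE kits after enzymatic digestion and red cell lysis, per the labels' protocols. The values are raw UMI counts per gene and cell as deposited by the authors, on GRCm38 by the submitters' processing notes. Aligner, counter and rule for calling cells were not given in the sources used here. The matrix labelled CluKO has 53713 genes and 4694 cells, with 77 under 200 genes. The 3 wild-type matrices have row numbers that do not pair with the gene table and were not analysed here.

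Cells were chosen by the rule, counts were summed over cells as CPM, and log2 ratios took an offset of 20 CPM. Genes compared had 30 or more UMIs in sum and reached 50 CPM in one of the groups. Intervals at 95% are exact Poisson (CPM), Clopper-Pearson (shares) and conditional binomial (ratios). With 1 pooled sample there is no test. Named genes are the 12 highest and 12 lowest against macrophages and the 8 against neutrophils and progenitors, with the genes used to choose cells, mitochondrial, ribosomal, immunoglobulin and haemoglobin genes left out, members of 21 lists, the markers and Clu. Of 509 list and marker genes 505 were found, and some genes are not reported here. Hepatocytes, the background for free RNA, had at least 200 UMIs of hepatocyte markers.

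The members and lists were chosen with earlier results of these data known. The limit of 10 UMIs for another type's markers, the list of markers left out of it, the wider comparison cells, the MHC class II and Gpnmb limits, the correlation pairs and the motifs, kept from a larger set that was looked at, were set after the data were seen. Comparison cells were not screened for another type's markers. Scrublet through scanpy 1.11.5 marked 5 of 4617 cells (0.108%) as doublets, 0 of them members, so leaving out the 5% highest scores was tried too. The ratio step was tested on simulated counts. Python 3.11.15, numpy 2.4.6, scipy 1.17.1 and pandas 2.3.3 were used.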

Additional observations from a re-analysis of the deposited data

How the results depend on the processing

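The share of cells chosen, 4.40%, was 3.77% with at least 5 UMIs of the 4 positive genes and 3.57% without Ly6c2 in the sum. It was 3.64% with at least 5 Lyz2 UMIs and 3.03% with 0 C1q UMIs. Without the cells with 10 or more UMIs of another type's marker list it was 3.34% (154 cells). This alternative was chosen after seeing the data, as were those without plasma cells and with wider comparison cells. With at most 20% mitochondrial counts, with 2 UMIs, with 5 C1q UMIs, by either use of Scrublet and without plasma cells the share stayed within its interval.

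Counts of genes moved with the filter on low counts, the offset, thinning and the plasma cells. Against the 21 macrophages, 269 higher and 307 lower became 427 and 166 without plasma cells, and 407 and 145 without all cells set apart. An offset of 50 CPM gave 167 and 174, and no filter beyond 1 UMI gave 664 and 789. A summed count of 10 gave 575 lower and thinning to 2000 UMIs 142 lower. Against the 15 neutrophils, 399 and 388 became 627 and 207 without plasma cells, and 614 and 165 without all cells set apart. An offset of 50 CPM gave 262 and 231, and no filter 1124 and 1423. A summed count of 10 gave 785 lower, thinning 161 lower, 0 C1q UMIs 239 lower and equal weight per cell 631 higher. The 168 wider neutrophils gave 922 higher, and 1334 without the cells set apart. Against progenitors, 243 higher became 366 without plasma cells and 374 without the cells set apart, and 643 lower became 363 with an offset of 50 CPM.

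Over all members, the highest against the lowest Ly6c2 cells gave 318 higher and 141 lower, and 101 and 59 after thinning. Without plasma cells 93 were higher, and without all cells set apart 87. The same split by MHC class II gave 94 and 726, 40 and 200 after thinning, 60 and 91 without plasma cells, and 39 and 68 without all cells set apart. Fewer genes passed the count filter after thinning.

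Of 807 values of named genes under alternatives, 774 were counted as the same, among them every value of a gene short of 2-fold as reported. Such a gene could not count as moved: Ms4a4c went from -0.44 to 1.76 (log2) against macrophages with wider comparison cells. Of genes past 2-fold as reported, 25 values came under it and 8 turned sign. Against macrophages these were Mzb1 at -0.27 (log2) without the cells set apart, and Retnlg at -1.22 and S100a8 at -1.08 with wider comparison cells as well. Against neutrophils they were Mzb1 at -0.28 without plasma cells and -0.59 without the cells set apart, and Prss34 at -0.73 without these and -0.59 with 0 C1q UMIs. The last was Jchain at -0.56 without the cells set apart and with wider comparison cells as well. With wider comparison cells alone Jchain was at 7.06. No paired analysis was possible because the 6 samples share 1 matrix with no sample names.

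With 154 cells of about 3152 UMIs, a gene under 3 counts in the group was not detectable, and subgroups of 24 and 15 cells give wide intervals. Which of the 3 mice a cell came from is unknown, so the spread between mice was not measured.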
